A study of Mus musculus with 4 samples.

Results

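Opposite-strand transcripts are noncoding RNAs that carry the name of a neighbouring gene on the other DNA strand, followed by the letters os. Members were taken as RefSeq noncoding (NR_) entries whose symbol is another gene's symbol plus os and, in some, a number, and whose named partner is itself in the tables. Evx1os was left out, and G6bos has the form of the name but no partner symbol. This gave 127 opposite-strand transcripts from 148 table rows, beside 122 sense partners, among 26994 genes and unnamed transcripts in all.

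Such RNAs arise in several ways. A promoter can fire in both directions and give a divergent RNA next to the messenger RNA, or a separate promoter can drive transcription back through or into the sense gene. Many are trimmed quickly by the nuclear RNA exosome and stay scarce, while some, among them the partners of Hand2 and of imprinted genes, have been studied for a bearing on the gene across from them.

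The tables come from CJ9 mouse embryonic stem cells of strain 129S4/SvJae that were wild type at the Evx1 locus, had received Cas9 only, and differentiated after removal of LIF, the cytokine that holds them in the stem cell state. There were 2 libraries titled day 6 and 2 titled day 4. The text on culture gives 4 and 6 days without LIF for day 6 replicates 1 and 2, and 2 and 6 days for day 4 replicates 1 and 2, so it departs from the titles for 3 of the 4 libraries, and the titles were used. The labels do not say whether libraries of the same day were separate cultures, so p-values measure only how far these libraries differ, which may be technical.

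Levels are FPKM, which scales fragments to transcript length and to mapped fragments in a library, summed over the rows of a symbol. The deposited intervals put depth at about 6500000 and 5770000 fragments in day 6 replicates 1 and 2, and 3740000 and 3630000 in day 4 replicates 1 and 2. Day 4 replicate 2 stood apart: 202 genes were listed at 0 there with 5 FPKM or more in each of the other 3 libraries, against 0, 0 and 4 such genes in day 6 replicates 1 and 2 and day 4 replicate 1. The gap between the day 4 libraries also followed GC content. The median of replicate 2 minus replicate 1 on the log2(FPKM + 1) scale was -1.67 for genes under 42% GC and 1.38 for genes at 58% or more, whereas the day 6 gaps lay between -0.10 and -0.02. Stem cell and epiblast markers summed to 214 and 214 FPKM at day 6, against 771 and 715 FPKM at day 4. Of these 9, 6 were lower and 3, Esrrb, Zfp42 and Klf4, higher in both day 6 libraries. Of 6 primitive streak and mesoderm markers, 4 (T, Mixl1, Eomes and Mesp1) were lower and Hand1 was higher in both day 6 libraries, with sums of 199 and 347 FPKM at day 6, against 316 and 584 FPKM at day 4. Of 5 neural markers, 3 were tested and Nes alone did not overlap, with 14.3 and 5.76 FPKM at day 6, against 140.2 and 87.6 FPKM at day 4; the list summed to 32.3 and 13.4 FPKM at day 6, against 149.8 and 96.4 FPKM at day 4, and Sox1 and Pax6 stayed under 1 FPKM. All 5 blood markers were above 0 in both day 6 libraries, with sums of 184 and 724 FPKM, and 5 and 4 of the 5 were at 0 in day 4 replicates 1 and 2, with a highest sum of 0.144 FPKM. Of 8 fibroblast markers, 7 were above 0 in both day 6 libraries, with sums of 142 and 271 FPKM. At day 4 the sums were 10.1 and 8.39 FPKM, and Postn, Lum and Dcn were at 0 in both libraries. Of 5 tested, Col1a1, Col1a2, Col3a1 and Postn were higher at day 6 without overlap. Thy1 overlapped, with 3.25 and 1.46 FPKM at day 6, against 1.98 and 1.38 FPKM at day 4. Fap was at 0 in both day 6 libraries and had 0.307 FPKM in day 4 replicate 1. The part of these cells in the differences given here was not tested, and in bulk RNA fewer cells of a type and less RNA per cell cannot be told apart.

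The windows around 4 of the start sites show how differently these transcripts begin. Each runs 5′ to 3′ on the transcript's strand, from 250 bases before to 50 bases after the RefSeq start on GRCm38.p6, and capitals mark the motif named on its line, read on either strand. Hand2os1 starts 124 bases from Hand2 and runs away from it, so that their windows share 223 bases. Hoxa11os starts within Hoxa11 and Lppos within Lpp, near the sense starts, and Abhd11os starts beyond the far end of Abhd11.
Hand2os1, chr8:57320810-57321109, minus strand, CCAAT and GGGCGG: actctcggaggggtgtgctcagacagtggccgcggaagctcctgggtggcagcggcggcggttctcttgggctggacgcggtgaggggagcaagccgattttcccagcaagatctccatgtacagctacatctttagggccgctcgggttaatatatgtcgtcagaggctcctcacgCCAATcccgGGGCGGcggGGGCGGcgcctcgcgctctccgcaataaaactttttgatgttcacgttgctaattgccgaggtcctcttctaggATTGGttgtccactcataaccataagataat
Hoxa11os, chr6:52244993-52245292, plus strand, TATAAA: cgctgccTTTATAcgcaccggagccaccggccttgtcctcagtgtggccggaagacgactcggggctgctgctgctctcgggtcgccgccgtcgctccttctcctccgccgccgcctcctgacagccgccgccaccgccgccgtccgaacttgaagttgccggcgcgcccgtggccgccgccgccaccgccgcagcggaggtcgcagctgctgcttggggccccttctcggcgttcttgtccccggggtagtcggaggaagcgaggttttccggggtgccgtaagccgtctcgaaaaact
Lppos, chr16:24393606-24393905, minus strand, GGGCGG: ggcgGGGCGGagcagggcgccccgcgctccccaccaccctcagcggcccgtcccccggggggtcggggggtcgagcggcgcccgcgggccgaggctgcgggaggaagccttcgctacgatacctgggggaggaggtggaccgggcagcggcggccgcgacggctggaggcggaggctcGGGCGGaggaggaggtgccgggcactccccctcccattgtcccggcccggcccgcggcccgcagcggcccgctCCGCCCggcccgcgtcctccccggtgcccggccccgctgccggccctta
Abhd11os, chr5:135013108-135013407, minus strand, CCAAT and GGGCGG: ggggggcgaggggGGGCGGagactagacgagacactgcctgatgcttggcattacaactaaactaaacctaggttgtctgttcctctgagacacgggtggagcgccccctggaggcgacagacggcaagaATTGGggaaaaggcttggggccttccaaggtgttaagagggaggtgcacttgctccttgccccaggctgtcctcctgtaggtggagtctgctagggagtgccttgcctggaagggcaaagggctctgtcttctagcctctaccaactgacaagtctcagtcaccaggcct

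These windows hold 23 CG pairs for Hand2os1, 41 for Hoxa11os, 43 for Lppos and 7 for Abhd11os. The median was 9 over 107 windows of 102 opposite-strand transcripts and 7 over all 32851 windows of the RefSeq table. GGGCGG, searched on both strands, was in 37 of the 107 windows (34.6%) and in 35.7% of all windows. CCAAT was in 40 (37.4%), against 37.4% of all windows, TATAAA in 10 (9.35%), against 13.6%, and CACGTG in 11 (10.3%), against 7.15%. In the 15 windows of the 14 transcripts described one by one that have an entry, the same order of motifs gave 9, 7, 2 and 3 windows. A match shows the letters alone, and these shares were not tested.

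Strands could be read for 125 pairs, and in all 125 the transcript and its partner were on opposite strands. In 39 pairs the transcript lay wholly inside the sense gene, in 31 it overlapped the sense gene at the starts, in 30 it ran away from the sense gene without overlap, in 12 it overlapped at the ends, in 9 it faced the sense gene end to end without overlap, and in 4 it contained the sense gene. Nearest annotated starts were within 500 bases in 32 pairs and within 1000 bases in 42, with a median distance of 5533 bases. Exonic bases were shared with the sense transcripts in the tables in 59 of 127 pairs, and with any GENCODE M21 transcript of the sense gene in 65. Shares given below for single pairs refer to the transcripts in the tables unless stated. The library kit marks strand, per the labels, but the sources used here do not say whether quantification used strand, so FPKM over shared exons cannot be assigned to 1 strand with certainty.

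Most opposite-strand transcripts were scarce. Of the 127, 60 and 61 were above 0 FPKM in day 6 replicates 1 and 2, and 38 and 24 in day 4 replicates 1 and 2. At 1 FPKM or more were 21 and 17 at day 6 and 15 and 15 at day 4. Their median over the mean of the 4 libraries was 0.0425 FPKM, 53 were at 0 in every library, and 14 were above 0 in every library. Their sense partners had a median of 2.41 FPKM, with 11 of 122 at 0 throughout. A mean of at least 1 FPKM was reached by 17 opposite-strand transcripts (13.4%), 72 sense partners (59.0%), 11.8% of 1988 other noncoding RefSeq symbols and 53.2% of 20542 other coding symbols. Levels of the transcript and its partner over the 127 pairs had a Spearman rho of 0.51, a description only, since both come from the same libraries.

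**Figure D1:**
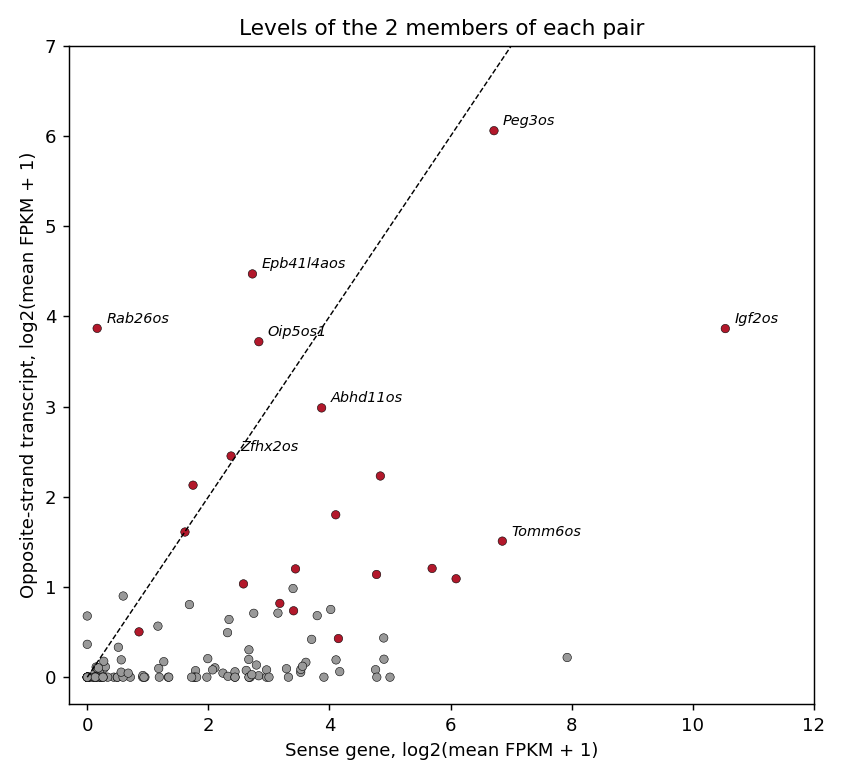
Mean over the 4 libraries of the opposite-strand transcript (vertical axis) against its sense partner (horizontal axis), both as log2(FPKM + 1), 1 point for each of 127 pairs, with the line of equal level. Most points lie far below the line, with Epb41l4aos, Oip5os1 and Rab26os among the exceptions above it; red points are the 21 described one by one.

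By arrangement, transcripts inside the sense gene were most often at 0 throughout, in 25 of 39 cases, against 12 of 31 for those overlapping at the starts and 7 of 30 for those running away without overlap. A mean of 1 FPKM was reached by 1 of 39 inside the sense gene, 6 of 31 overlapping at the starts, 1 of 30 running away without overlap, 4 of 12 overlapping at the ends, 3 of 9 facing end to end and 0 of 4 containing the sense gene. The other 2 with such a mean, Peg3os and Msx1os, have no strand in the annotation used. These counts describe annotated classes and were not tested.

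The sense gene exceeded its opposite-strand transcript in 104 and 109 of 127 pairs in day 6 replicates 1 and 2, and in 97 and 88 pairs in day 4 replicates 1 and 2. The opposite-strand transcript was the higher in 9 and 7 pairs at day 6 and in 9 and 7 pairs at day 4, and both were at 0 in the rest. Only Epb41l4aos exceeded its partner in each of the 4 libraries.

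Between the days, no opposite-strand transcript passed the test. In limma on log2(FPKM + 1) with Benjamini-Hochberg adjustment at 0.05, 0 of the 17 with a mean of at least 1 FPKM and 0 of 72 tested partners passed, as did 0 of all 11716 tested genes, whose smallest adjusted p was 0.267. An unadjusted p under 0.05 was reached by 2 of the 17 (Igf2os and Msx1os) and 12 of the 72, beside 15.3% of all tested genes. The level for a test was a mean over both days, so some transcripts, Msx1os among them, reached it through 1 day alone. Both day 6 libraries were above both day 4 libraries for 7 of the 17, beside 41.6% of all tested genes, and below both for 2, beside 11.5%. The median day 6 minus day 4 difference was 0.22 for the 17, 0.50 for the 72 partners and 0.51 for all tested genes (log2). Over all 127, whatever their level, 28 (22.05%) were higher without overlap, beside 26.1% of all genes in the tables, and 7 (5.51%) lower, beside 6.49%.

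Transcripts seen at 1 day only were nearly all seen at day 6, a lean that all genes in the tables shared. Of the 127, 17 were above 0 in both day 6 libraries and neither day 4 library (13.4%), beside 4.92% of all genes, and 0 showed the opposite, beside 0.126%. Counting those seen in either library of a day, 30 were above 0 at day 6 only (23.6%), beside 10.3% of all genes, and 3 at day 4 only (2.36%), beside 1.57%. Many genes in the tables are far above these levels, and the shares were not tested against each other. The deeper day 6 libraries and the lower detection at day 4 move with these counts, and their part was not tested.

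**Figure D2:**
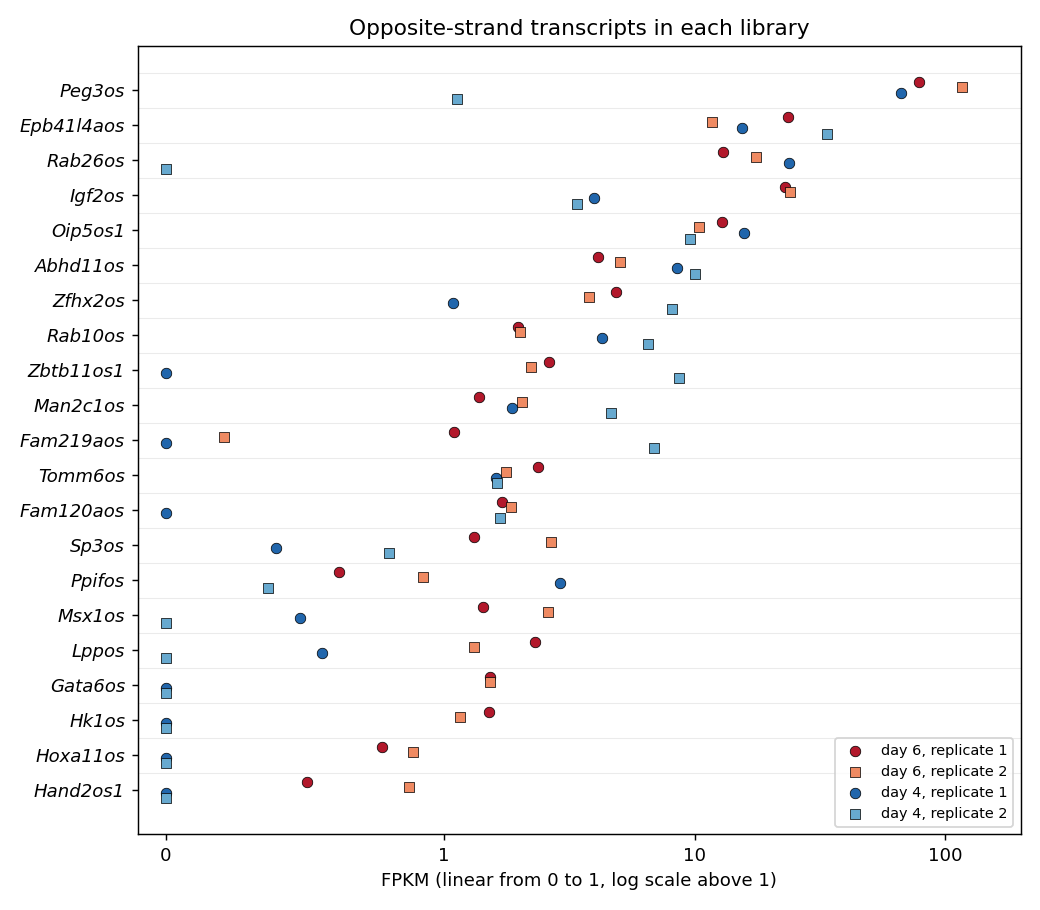
FPKM of the 21 opposite-strand transcripts described one by one, in each of the 4 libraries, day 6 first, with each transcript's 4 values in 1 row. Peg3os, Rab26os and Zbtb11os1 have day 4 libraries far apart, and the 4 transcripts at the bottom were at 0 in both day 4 libraries.

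Igf2os and Peg3os belong to imprinted loci, where 1 parental copy is active. Igf2os, a 4778-base RNA on the plus strand at chr7:142659693-142670356 that overlaps the start of Igf2, had 23.0 and 23.9 FPKM in the day 6 libraries and 3.98 and 3.38 FPKM in the day 4 libraries. Igf2, which encodes a fetal growth factor, had 2505 and 3221 FPKM at day 6, against 147 and 63.5 FPKM at day 4. Both members of the pair were higher in both day 6 libraries, without overlap.

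The mean of Igf2os was 6.38 times as high at day 6, at 23.5 ± 0.668 FPKM against 3.68 ± 0.422 FPKM at day 4 (SD, n = 2 each), and that of Igf2 27.2 times. The differences were 2.39 (standard error 0.42) for Igf2os and 4.86 (0.64) for Igf2 on the log2(FPKM + 1) scale, each with a limma adjusted p of 0.267. Igf2os made up 0.910 and 0.738% of the pair's FPKM at day 6, against 2.64 and 5.05% at day 4. Of the exonic bases of Igf2os, 2.05% lie in Igf2 exons, and 26.0% lie in exons of Igf2 or Gm49394. Igf2 was far above Igf2os in every library. Even this small share therefore leaves the FPKM of Igf2os, and its difference between the days, not separable from Igf2 where strand was not used. The difference for Igf2os was 2.30 to 2.48 when each library was left out, with limma adjusted p of 0.000504 and 0.00215 without day 4 replicates 1 and 2, where 7837 and 6087 of 11716 genes also passed, and of 1.00 without either day 6 library, where 0 genes passed.

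Peg3os was the most abundant opposite-strand transcript, with 78.9 and 116 FPKM at day 6, against 66.5 and 1.13 FPKM at day 4. Peg3, a paternally expressed zinc finger gene, had 132 and 167 FPKM at day 6, against 79.4 and 38.4 FPKM at day 4. Day 4 replicate 2 was far below the other 3 libraries for Peg3os, and the days did not overlap for either gene.

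All 865 bases of Peg3os at chr7:6706760-6707624 lie within Peg3 exons (100%), so its FPKM cannot be told apart from that of Peg3 where strand was not used. The difference for Peg3os was 3.01 (standard error 1.75, limma adjusted p 0.453) but 0.52 without day 4 replicate 2 and 5.51 without replicate 1. The difference for Peg3 was 1.41 (standard error 0.57, limma adjusted p 0.348).

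A further 4 pairs were taken by a rule on zeros, with the transcript at 0 in both day 4 libraries and at 0.5 FPKM or more in both day 6 libraries. Hand2os1, also called Upperhand, had 0.508 and 0.875 FPKM at day 6, against 0 and 0 at day 4. Hand2, a transcription factor of heart, limb and branchial arch, had 16.3 and 47.9 FPKM at day 6, against 1.60 and 1.05 FPKM at day 4, a difference of 3.66 (standard error 0.66, limma adjusted p 0.267). Both were higher in both day 6 libraries.

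The day 6 levels of Hand2os1 stand for about 1.83 and 2.79 fragments, and the same level at the day 4 depth would have given about 1.43 and 1.39, so a difference in level was not detectable at this depth. Hand2os1 was 3.02 and 1.79% of the pair at day 6.

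Gata6os had 1.53 and 1.53 FPKM at day 6, against 0 and 0 at day 4, and starts 57 bases from Gata6. Gata6, an endoderm and heart transcription factor, had 10.1 and 16.4 FPKM at day 6, against 2.12 and 3.65 FPKM at day 4, a difference of 1.87 (standard error 0.50, limma adjusted p 0.280). Neither overlapped between the days, and the day 6 level would have given about 3.91 and 3.80 fragments of Gata6os in day 4 replicates 1 and 2. Of the exonic bases of Gata6os, 9.96% lie in Gata6 exons, so its FPKM is not separable from Gata6 where strand was not used.

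Hoxa11os, the antisense RNA of a homeobox gene of limb and uterus, had 0.778 and 0.890 FPKM at day 6, against 0 and 0 at day 4. Hoxa11 had 1.56 and 1.67 FPKM at day 6 and was likewise at 0 in both day 4 libraries. The pair was seen at day 6 only, with Hoxa11os at 33.3 and 34.7% of its FPKM, and 30.9% of the exonic bases of Hoxa11os lie in Hoxa11 exons. At the day 4 depth its day 6 level would have given about 5.74 and 5.57 fragments.

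Hk1os, inside the gene of the glycolytic enzyme hexokinase, had 1.51 and 1.16 FPKM at day 6, against 0 and 0 at day 4. Hk1 had 11.7 and 15.4 FPKM at day 6, against 3.96 and 7.38 FPKM at day 4, a difference of 1.16. Both were higher at day 6 without overlap, and about 2.78 and 2.70 fragments of Hk1os would have been due at day 4 at its day 6 level.

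In some pairs the 2 sides differed in opposite directions. Abhd11os, whose end overlaps that of the mitochondrial hydrolase gene Abhd11, had 4.10 and 5.06 FPKM at day 6, against 8.53 and 10.004 FPKM at day 4. Abhd11 had 17.7 and 19.2 FPKM at day 6, against 8.15 and 9.37 FPKM at day 4. The opposite-strand transcript was lower and the sense gene higher in both day 6 libraries, with no overlap on either side.

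Abhd11os averaged 4.58 ± 0.673 FPKM at day 6, against 9.27 ± 1.04 FPKM at day 4 (SD, n = 2 each), and made up 18.8 and 20.8% of the pair at day 6 against 51.1 and 51.6% at day 4. The differences were -0.88 (standard error 0.42, adjusted p 0.395) for Abhd11os and 1.00 (standard error 0.42, adjusted p 0.356) for Abhd11 in limma. With libraries scaled to equal medians they were -1.51 for Abhd11os and 0.37 for Abhd11. The log2 balance of the pair, transcript over partner with 1 FPKM added to each, differed by -1.88 between day 6 and day 4. Its two-sided exact permutation p was 0.333, the smallest that 2 libraries against 2 can give. The same p came from the pairs of Igf2os, Man2c1os, Msx1os, Rab10os, Sp3os, Tomm6os, Hand2os1 and Hoxa11os. It therefore does not set the Abhd11os pair apart, and the other described pairs gave a larger p. Of the exonic bases of Abhd11os, 9.09% lie in Abhd11 exons. Its values stand for about 13.3 and 14.6 fragments at day 6 and 16.0 and 18.2 at day 4, and its deposited intervals overlap between the days.

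Sp3 and its transcript had the reverse order. Sp3os, with 19.0% of its exonic bases in Sp3 exons, had 1.32 and 2.68 FPKM at day 6, against 0.395 and 0.804 FPKM at day 4. Sp3, a GC-box-binding transcription factor, had 9.39 and 7.88 FPKM at day 6, against 10.8 and 11.3 FPKM at day 4. The transcript was higher and the gene lower in both day 6 libraries, with differences of 0.88 (standard error 0.43) and -0.33 and adjusted p of 0.401 and 0.722 in limma. Sp3os was 12.3 and 25.3% of the pair at day 6 and 3.53 and 6.64% at day 4. The day 4 values of Sp3os stand for about 1.69 and 3.35 fragments, against 9.86 and 17.7 at day 6. Its day 4 levels and shares are therefore uncertain.

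Rab10os, which overlaps the end of the small GTPase gene Rab10, had 1.98 and 2.01 FPKM at day 6, against 4.27 and 6.52 FPKM at day 4. Rab10 had 28.6 and 26.3 FPKM at day 6, against 35.02 and 20.6 FPKM at day 4. The transcript was lower in both day 6 libraries while the day 4 values of the gene enclosed those of day 6. The difference for Rab10os was -1.07 (standard error 0.43, limma adjusted p 0.343), against 0.03 for Rab10, which was -0.34 without day 4 replicate 2.

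Man2c1os, at the start of a cytosolic mannosidase gene and with 34.01% of its exonic bases in exons of the Man2c1 transcripts in the tables and 49.9% in those of any annotated one, had 1.38 and 2.05 FPKM at day 6, against 1.87 and 4.64 FPKM at day 4. Man2c1 had 20.1 and 20.3 FPKM at day 6, against 6.57 and 17.7 FPKM at day 4. The transcript overlapped between the days and the gene did not, and the transcript's share of the pair was 6.397 and 9.17% at day 6 and 22.2 and 20.8% at day 4.

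**Figure D3:**
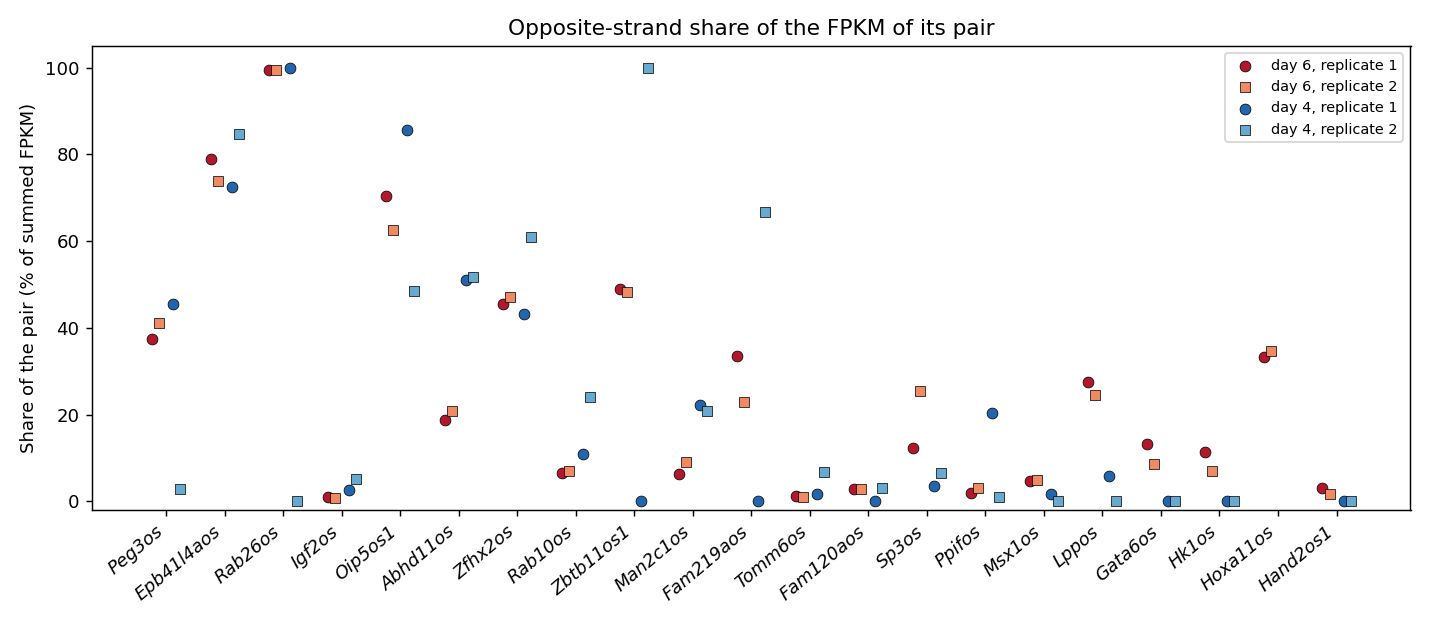
Share of the opposite-strand transcript in the FPKM of its pair, in percent, in each library, day 6 left of day 4, for the 21 pairs in order of mean level. A library with both members at 0 has no point. Abhd11os sits at 18.8 and 20.8% at day 6 and at 51.1 and 51.6% at day 4, whereas Sp3os and Lppos have larger shares at day 6.

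Msx1os and Lppos were higher at day 6 beside partners whose days overlapped. Both reached a mean of 1 FPKM through day 6 alone, with day 4 means of 0.241 and 0.280 FPKM. Msx1os, antisense to a homeobox gene of mesenchyme, had 1.44 and 2.61 FPKM at day 6, against 0.481 and 0 FPKM at day 4, a difference of 1.28 (standard error 0.43, limma adjusted p 0.303). Msx1 had 29.8 and 50.3 FPKM at day 6, against 30.0 and 159 FPKM at day 4. The day 4 libraries of Msx1 differed most, and 51.97% of the exonic bases of Msx1os lie in Msx1 exons. The day 4 values of Msx1os stand for about 3.94 and 0 fragments, against 20.4 and 32.9 at day 6.

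Lppos had 2.31 and 1.32 FPKM at day 6, against 0.561 and 0 FPKM at day 4, a difference of 1.15 (standard error 0.44, limma adjusted p 0.329). Lpp, a LIM protein of focal adhesions, had 6.08 and 4.09 FPKM at day 6, against 9.17 and 0.569 FPKM at day 4. Both day 4 libraries of Lppos were below day 6, while those of Lpp lay on either side of it. Lppos was 27.5 and 24.4% of the pair at day 6 and 5.76 and 0% at day 4. The day 4 values of Lppos stand for about 1.79 and 0 fragments, against 12.8 and 6.52 at day 6.

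Tomm6os and Fam120aos start 776 and 284 bases from their partners and were minor members of their pairs. Tomm6os had 2.38 and 1.77 FPKM at day 6, against 1.61 and 1.63 FPKM at day 4. Tomm6, a subunit of the mitochondrial import pore, had 177 and 165 FPKM at day 6, against 94.0 and 22.8 FPKM at day 4. Both were higher at day 6 without overlap, by 0.22 for the transcript and 1.85 for the gene (log2). The difference for Tomm6os was -0.41 with libraries scaled to equal medians and -0.13 with the GC correction, and 51.3% of the exonic bases of Tomm6os lie in exons of Tomm6 or other genes.

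Fam120aos had 1.70 and 1.85 FPKM at day 6, against 0 and 1.68 FPKM at day 4. Fam120a, an RNA-binding protein gene, had 60.002 and 64.0 FPKM at day 6, against 24.9 and 54.2 FPKM at day 4. Both were above day 4, but the gap of Fam120aos to day 4 replicate 2 was small, and its difference was 0.76 with both libraries and 0.05 without replicate 1.

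**Figure D4:**
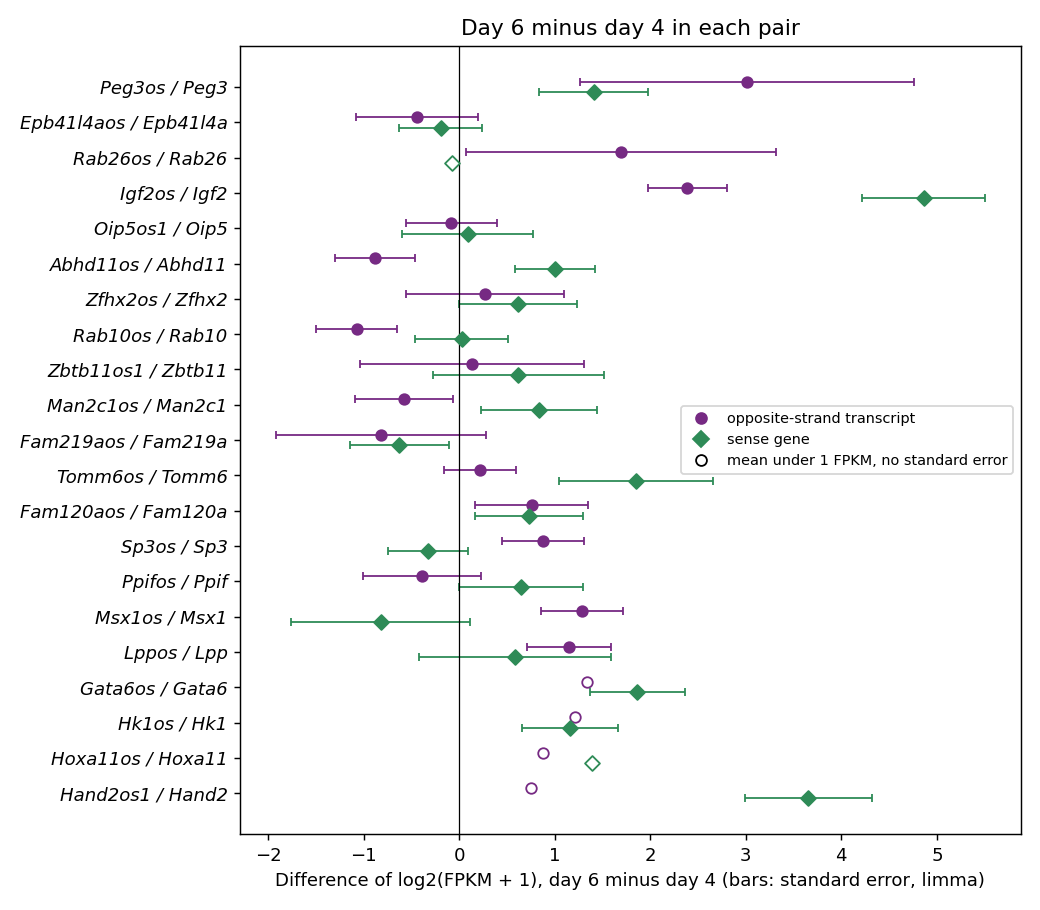
Day 6 minus day 4 difference of log2(FPKM + 1) for each of the 21 opposite-strand transcripts (circles) and its sense partner (diamonds), with the limma standard error as bars. Open symbols have a mean under 1 FPKM and no standard error, and Abhd11os and Abhd11 lie on either side of 0.

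Epb41l4aos, Oip5os1 and Rab26os were the larger member of their pairs on average. So were 2 transcripts described further on, Zbtb11os1 (mean 3.37 against 2.36 FPKM) and, by little, Zfhx2os (4.47 against 4.19 FPKM). Epb41l4aos, whose human counterpart hosts a small nucleolar RNA, had 23.7 and 11.7 FPKM at day 6, against 15.5 and 33.8 FPKM at day 4. Epb41l4a, a membrane-cytoskeleton protein gene, had 6.29 and 4.17 FPKM at day 6, against 5.93 and 6.10 FPKM at day 4. The days overlapped on both sides, and the difference for Epb41l4aos was -0.44 (standard error 0.64, limma adjusted p 0.757), but 0.10 without day 4 replicate 2.

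Oip5os1, also called Cyrano and known for pairing with the microRNA miR-7, had 12.9 and 10.4 FPKM at day 6, against 15.8 and 9.58 FPKM at day 4. Oip5, a centromere protein gene, had 5.39 and 6.25 FPKM at day 6, against 2.65 and 10.2 FPKM at day 4. The day 4 values enclosed those of day 6 on both sides, with a difference for Oip5os1 of -0.08 (standard error 0.48, limma adjusted p 0.944), but 0.25 without day 4 replicate 1.

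Rab26os, a 295-base RNA of the plus strand at chr17:24528251-24528744, had 13.0 and 17.6 FPKM at day 6, against 23.8 and 0 FPKM at day 4. Rab26, a vesicle GTPase gene, had 0.0788 and 0.0902 FPKM at day 6, against 0 and 0.311 FPKM at day 4. The day 4 libraries lay on either side of day 6, and the difference for Rab26os was 4.01 without replicate 1 and -0.62 without replicate 2. The deposited FPKM of Rab26os lies above its own deposited interval in the 3 libraries where it is above 0, for example 13.0 FPKM with an interval of 3.75 to 11.9, so its level is uncertain.

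The remaining 4 transcripts described had day 4 libraries on either side of both day 6 libraries. Zbtb11os1 had 2.61 and 2.22 FPKM at day 6, against 0 and 8.66 FPKM at day 4, whereas its partner Zbtb11, a zinc finger gene, had 2.72 and 2.38 FPKM at day 6, against 4.32 and 0 FPKM at day 4. The day 4 libraries were high and low in opposite order in this pair, in which Zbtb11os1 has 65.0% GC and Zbtb11 43.6%. Of the exonic bases of Zbtb11os1, 36.2% lie in Zbtb11 exons, and the part of either in this order was not tested. The difference for Zbtb11os1 was 0.13 (limma adjusted p 0.962), but -1.50 without replicate 1 and 1.77 without replicate 2. Fam219aos, with 66.2% of its exonic bases in Fam219a exons, had 1.10 and 0.209 FPKM at day 6, against 0 and 6.90 FPKM at day 4, a difference of -0.82 that was 0.67 without replicate 2.

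Zfhx2os had 4.84 and 3.80 FPKM at day 6, against 1.09 and 8.16 FPKM at day 4, and all of its exonic bases lie in exons of Zfhx2 or Gm20687. Ppifos, opposite the gene of the mitochondrial cyclophilin and with 13.1% of its exonic bases in exons of the Ppif transcripts in the tables and 79.5% in exons of any annotated Ppif transcript, had 0.621 and 0.924 FPKM at day 6, against 2.90 and 0.367 FPKM at day 4, a difference of -0.39 that was 0.37 without replicate 1. For both, the day 4 values enclosed those of day 6. The difference for Zfhx2os was 0.27 (limma adjusted p 0.883), but -0.79 without replicate 1 and 1.34 without replicate 2.

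**Figure D5:**
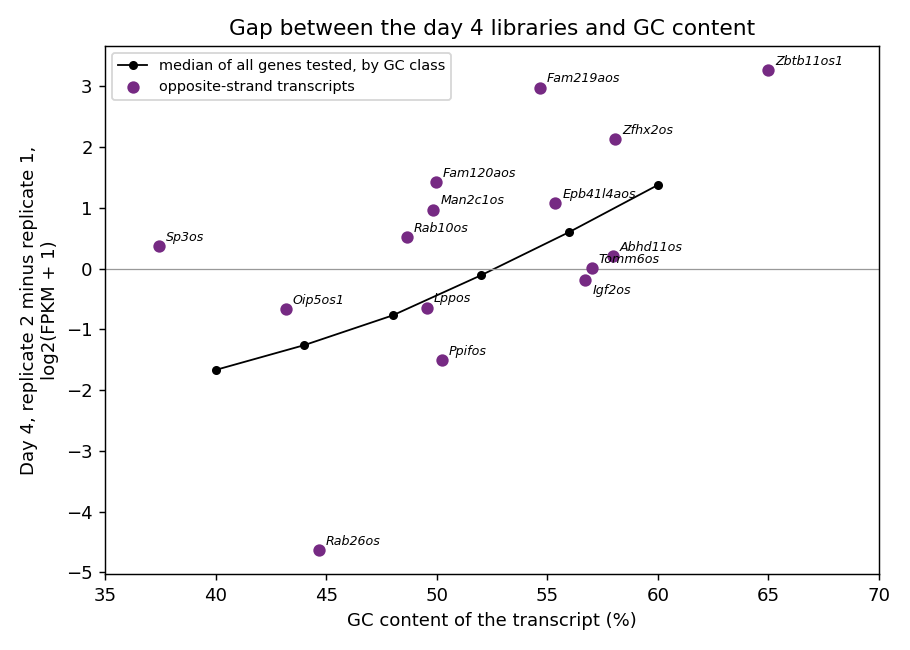
Day 4 replicate 2 minus replicate 1, on the log2(FPKM + 1) scale, against GC content of the transcript in percent, for the 15 opposite-strand transcripts tested that have a GC value, with the median of all tested genes by GC class as a line. The line climbs with GC content, its outer classes are drawn at 40 and 60%, and Zbtb11os1 and Rab26os lie at the top and bottom.

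The 4 transcripts taken by the rule on zeros were higher at day 6 by that choice. Among the 17 taken by level, Msx1os, Lppos, Sp3os and Fam120aos had a day 4 mean under 1 FPKM. Fam219aos and Ppifos had a day 6 mean under 1 FPKM. These reached the level through 1 day, so their direction is not independent of how they were taken. Of the 17 pairs taken by level, both sides were higher at day 6 without overlap in 4 (Igf2os, Peg3os, Tomm6os and Fam120aos) and both overlapped in 7. The transcript was higher beside a lower partner in 1 pair, Sp3os, and beside an overlapping partner in 2, Lppos and Msx1os. It was lower beside a higher partner in 1 pair, Abhd11os, and beside an overlapping partner in 1, Rab10os, and in the last pair, Man2c1os, the sense gene alone was higher. For single genes, 41.6% of all tested genes were higher and 11.5% lower without overlap, and no share of pairs over all genes was computed. Leaving out either day 4 library gave 3 of 17 opposite-strand transcripts past the threshold in the same direction both times, namely Igf2os, Abhd11os and Rab10os (17.6%), beside 24.9% of all 11716 tested genes. Leaving out either day 6 library gave 0 calls.

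The other 106 opposite-strand transcripts had means up to 0.977 FPKM. Dlx4os had 2.34 and 0.994 FPKM at day 6, against 0 and 0.132 FPKM at day 4, and Uckl1os had 0.162 and 0.659 FPKM at day 6, against 2.02 and 1.07 FPKM at day 4. The days did not overlap for either, neither reached the level for a test, and both were picked after their values were seen.

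Related groups gave a setting for these values. Of 10 other antisense or overlapping RNAs with a row, 2 were tested and 0 passed. Airn, antisense to Igf2r, had 5.54 and 3.84 FPKM at day 6, against 0 and 0 at day 4 (limma adjusted p 0.267), and Hotairm1, from the Hoxa cluster, had 1.56 and 1.60 FPKM at day 6, against 1.55 and 3.60 FPKM at day 4. Airn did not overlap between the days and Hotairm1 did.

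The RNA exosome, which degrades many antisense RNAs, had 21 subunits and cofactors tested, with 0 past the threshold, 1 higher and 5 lower in both day 6 libraries without overlap, and a median of -0.11, beside 41.6% higher, 11.5% lower and a median of 0.51 for all tested genes. Exosc3, a cap subunit, had 17.3 and 19.4 FPKM at day 6, against 40.5 and 49.1 FPKM at day 4. Exosc1, another cap subunit, had 14.3 and 8.80 FPKM at day 6, against 6.405 and 1.90 FPKM at day 4. Srrt, which links the cap-binding complex to the exosome, had 66.6 and 66.1 FPKM at day 6, against 169 and 104 FPKM at day 4, and the nuclease Dis3 had 16.4 and 18.3 FPKM at day 6, against 32.4 and 23.1 FPKM at day 4.

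A list of 26 developmental transcription factors included some that are not the partner of any of the opposite-strand transcripts. Of these 26, 12 were tested and 0 passed, with 2 higher and 6 lower in both day 6 libraries. Their median was -0.97, beside the same 41.6%, 11.5% and 0.51 for all tested genes. Lhx1 had 1.71 and 1.24 FPKM at day 6, against 11.01 and 7.87 FPKM at day 4, and Bcl11a had 0.467 and 0.282 FPKM at day 6, against 4.33 and 4.36 FPKM at day 4. Foxd3 had 0.727 and 0.0519 FPKM at day 6, against 2.38 and 1.52 FPKM at day 4, and Gsc had 0.693 and 1.13 FPKM at day 6, against 1.73 and 8.41 FPKM at day 4. These 4, with the smallest p of the list, were lower in both day 6 libraries. Among them only Lhx1 is a sense partner here, and Lhx1os was at 0 in all 4 libraries. Bcl11a, Foxd3 and Gsc have no opposite-strand transcript among the members, so their values do not describe a pair. Opposite-strand transcripts of listed factors numbered 15, of which Msx1os was the only one tested.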

How the data were processed

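RNA of 4 libraries (2 at day 6 and 2 at day 4) was analysed from 1 transcript table each. Per the labels' protocols, poly(A) RNA was sequenced from a stranded kit. TopHat2 2.0.11 and CASAVA were run against build mm10, per the submitters' processing notes; the sources used here do not give the quantifier or whether it used strand. The values are FPKM as deposited by the authors, with an interval per row. The intervals served to estimate depth and to check the values of described transcripts, and the tables hold no counts. A coverage signal is deposited beside FPKM. Its median ratio to FPKM was 1.82 and 1.60 in day 6 replicates 1 and 2, and 0.695 and 0.932 in day 4 replicates 1 and 2. This ratio orders the day 4 libraries the other way from the intervals, so their depth is uncertain. The estimate of depth takes the intervals to reflect counting error alone, which the sources used here do not state. Each interval comes from a single library and does not measure differences between libraries.

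The tables were joined by transcript ID and position. Symbols came from RefSeq (GRCm38.p6) and GENCODE M21 tables, naming all but 1621 of 35656 rows, and FPKM was summed per symbol. Tests used limma 3.58.1 in R 4.3.3 on log2(FPKM + 1) for the 11716 genes averaging 1 FPKM or more, with a mean-variance trend and Benjamini-Hochberg adjustment over all of them; the log2 values were computed here from deposited FPKM. The fit was tested on simulated data. Balance of a pair was compared by a two-sided exact permutation test. Described one by one were the transcripts with a mean of at least 1 FPKM, up to 20, and those at 0 in both libraries of 1 day and at 0.5 FPKM or more in both of the other. In each of 3 lists the 4 with the smallest p were named. Members and lists were chosen with earlier results of these data known. Alternatives were a pseudocount of 0.1 FPKM, no filter on low values, all rows of a symbol, equal medians, a GC correction, no trend, a replicate block and leaving out each library. Other samples of the series were not analysed here.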

Additional observations from a re-analysis of the deposited data

How the results depend on the processing

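No opposite-strand transcript passed the threshold with all 4 libraries under any alternative. The count was 0 to 11 of the tested transcripts when each library was left out, and 0 to 42 for the sense partners, with the lone library of a day assumed to vary like the others. Over all tested genes it was 0 to 7837 in these leave-outs, with 0 calls when a day 6 library was left out, 7837 without day 4 replicate 1 and 6087 without day 4 replicate 2. Replicate 1 minus replicate 2 at day 6 had r = -0.09 with the same at day 4 over 11716 genes. The day 4 gap followed GC content, so this value cannot show whether libraries of the same replicate number were paired. A replicate block gave 67 calls over all genes, 0 among the opposite-strand transcripts and 2 among the sense partners.

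Scaling the libraries to equal medians moved the median difference of all tested genes from 0.51 to -0.12, that of the opposite-strand transcripts to -0.41 and that of the sense partners to -0.12, with 3 transcripts higher and 6 lower without overlap, and 13 partners higher and 21 lower. It also put below 0 the differences of Zfhx2os (-0.35), Zbtb11os1 (-0.49), Tomm6os (-0.41), Oip5 (-0.54) and Rab10 (-0.60). Lpp (-0.04), Zbtb11 (-0.009) and Zfhx2 (-0.01) fell just below 0 as well. The GC correction, which could not include Peg3os and Msx1os, gave 2 transcripts higher and 6 lower, and 21 partners higher and 22 lower. Without the filter on low values, 74 transcripts and 111 partners were tested, with 28 and 41 higher and 7 and 11 lower. Leaving out 1 library gave 7 to 10 transcripts higher and 3 to 7 lower, and 27 to 41 partners higher and 10 to 24 lower.

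Without day 4 replicate 1 the direction reversed for Zfhx2os (-0.79), Zbtb11os1 (-1.50) and Oip5 (-0.72), against 1.34, 1.77 and 0.90 without day 4 replicate 2. The sign also changed without day 4 replicate 1 for Ppifos (0.37), Oip5os1 (0.25), Ppif (-0.08) and Zfhx2 (-0.06). Without day 4 replicate 2 it changed for Rab26os (-0.62), Fam219aos (0.67), Epb41l4aos (0.10), Lpp (-0.76), Msx1 (0.36), Rab10 (-0.34) and Zbtb11 (-0.59). The cause of these changes was not tested. The day 4 libraries differ from each other more than the day 6 libraries do, and at their depth a level of 1 FPKM rests on few fragments.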
